A study of Mus musculus with 18 samples.

Results

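Triglyceride breakdown was followed through 8 genes, namely the lipase genes Pnpla2, Lipe and Mgll, the genes of the coactivator Abhd5 and the inhibitor G0s2, the patatin-like gene Pnpla3, and the carboxylesterase genes Ces1d and Ces1f. Their rows were found by matching these symbols, and all 8 of them were present in all 18 samples, among 45151 symbols present in every file. The samples were 6 of inguinal white adipocytes (iWAT), 6 of epididymal white adipocytes (eWAT) and 6 of brown adipose tissue (BAT) from wild-type male C57BL/6J mice aged 16 weeks on regular chow, with no transgene or drug in any group. The labels give the strain also as C57BL/6 and name the cell type of the last group as BAT adipocytes, although its RNA came from frozen whole tissue, whereas iWAT and eWAT cells were freed by collagenase digestion and taken from the floating layer. Depot and preparation therefore cannot be told apart in a comparison with BAT, and fewer cells of a type and less RNA per cell cannot be told apart in any of these bulk samples. The labels do not say that the 6 samples of a group came from 6 separate mice, so p-values measure the spread between these samples.

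Lipolysis releases fatty acids and glycerol from the fat droplet in steps. Adipose triglyceride lipase (product of Pnpla2) removes the first fatty acid, hormone-sensitive lipase (Lipe) acts mainly on the resulting diglyceride, and monoglyceride lipase (Mgll) finishes the reaction. The protein of Abhd5 switches the first lipase on, that of G0s2 holds it back, and catecholamines speed the whole route through cyclic AMP and protein kinase A. In white fat the fatty acids leave for other organs, and in brown fat they feed heat production.

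Levels are given as RPKM, the reads of a row divided by its length and by the sample's total, which allows different genes to be set side by side. They rest on totals of 22929576 to 32141048 reads per iWAT sample, 26607733 to 34048018 per eWAT sample and 26706786 to 34512470 per BAT sample. On a segment of chromosome 1 whose rows carry names of mitochondrial genes, the most-read row held 11.8% to 12.6% of the BAT reads. The most-read row there held 3.70% to 7.29% in iWAT and 4.56% to 6.25% in eWAT, where single transcripts were counted. Other genes thus share fewer of the BAT reads. Folds were therefore taken from read counts with TMM scaling, which moved the median log2 fold change of all rows between iWAT and BAT from 0.27 to 0.010 and that between eWAT and BAT from 0.36 to 0.035. As a check of the labels, Ucp1, the defining gene of brown fat, had 969 to 1509 RPKM in BAT samples and at most 5.76 elsewhere, and Adipoq, the adiponectin gene, had 258 to 394 RPKM in BAT samples against at least 868 in white adipocytes.

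Counting also followed the depot, since iWAT and BAT were counted over all exons of a gene and eWAT over single transcripts, of which the most-read one was taken. The counted stretch is called a row below, and only G0s2 had the same one, of 843 bp, in all samples. For the other genes the eWAT row was shorter, with 2717 against 3377 bp for Pnpla2, 3221 against 5127 bp for Lipe, 3676 against 5213 bp for Mgll, 3148 against 4001 bp for Abhd5, 4649 against 6682 bp for Pnpla3, 1966 against 2369 bp for Ces1d and 1915 against 3285 bp for Ces1f. A shorter row collects fewer reads and divides them by a smaller length. For eWAT, the fold change from counts is therefore set beside that with row length entered as an offset. The offset moved the median log2 fold change of all symbols to 0.49 against BAT and 0.39 against iWAT, so a value near these medians is no shift relative to other genes. Where the signs differed, the call from counts is given as such and the direction in eWAT is not settled.

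The lipase genes were among the most abundant genes of fat. Pnpla2 had the highest mean RPKM of the 8 genes in every depot and ranked 51 in iWAT, 68 in eWAT and 53 in BAT among all symbols. In iWAT it was followed by Lipe, Ces1d and Mgll, in eWAT by Lipe, Mgll and Ces1d, and in BAT by G0s2, Ces1d and Lipe. These orders rest on RPKM, in which Lipe was divided by 5127 bp in iWAT and BAT and by 3221 bp in eWAT. The place of Lipe can therefore differ with the row used. Abhd5 was far less abundant and ranked 1128, 1486 and 1277. Ces1f was the lowest of the 8 in eWAT and BAT but not in iWAT, where Abhd5 and Pnpla3 lay below it.

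**Figure D1:**
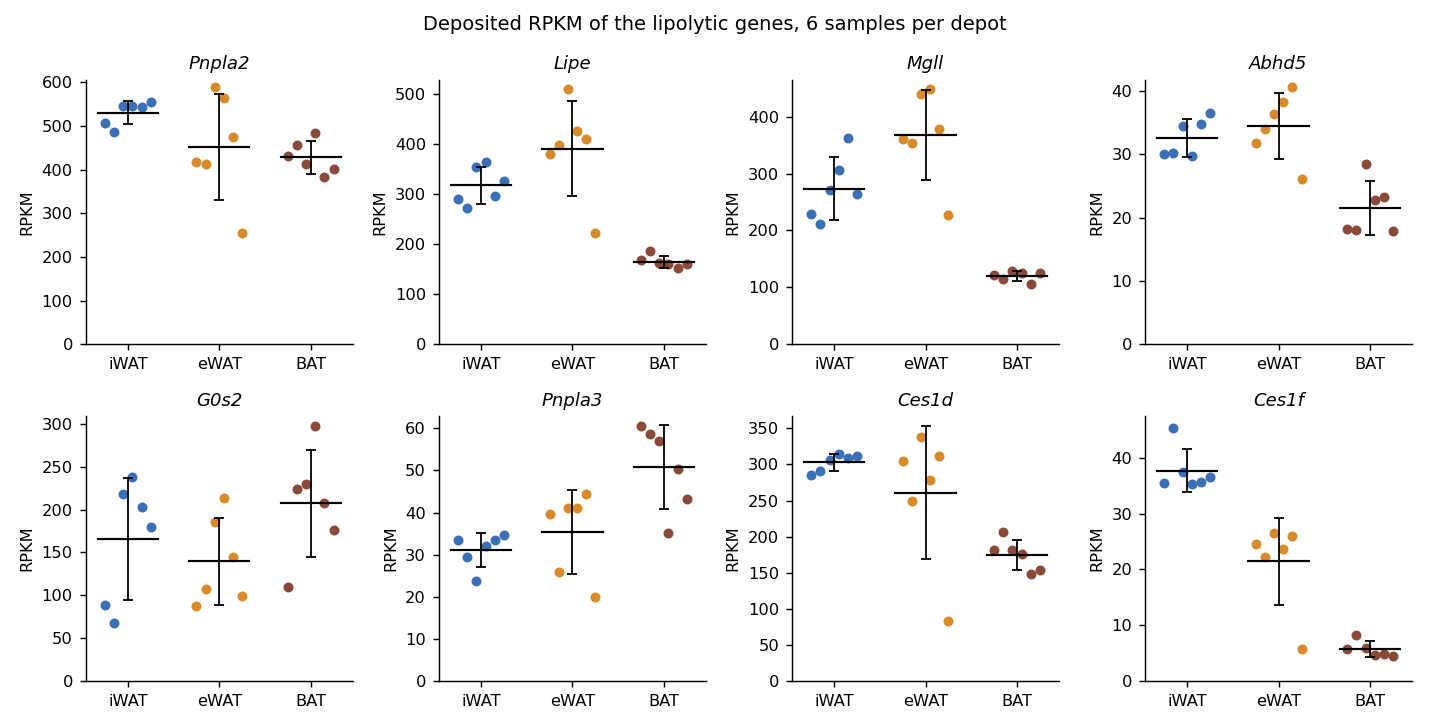
Deposited RPKM of each gene (vertical axes, linear, from 0) in the 6 samples of each depot, with points for samples in the order of their numbers, the long line for the mean and bars for ± SD. The BAT samples lie below all iWAT samples for Pnpla2, Lipe, Mgll, Abhd5, Ces1d and Ces1f and above all of them for Pnpla3, they overlap for G0s2, and 1 eWAT sample lies far below the other 5 for Ces1d and Ces1f. After TMM rescaling, iWAT and BAT also overlap for Pnpla2 and Abhd5. How many of all genes lack overlap was not counted.

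Between iWAT adipocytes and BAT tissue, 5 of the 8 genes were higher in iWAT (Lipe, Mgll, Abhd5, Ces1d and Ces1f), 1 was lower (Pnpla3), and Pnpla2 and G0s2 did not pass the test (edgeR quasi-likelihood test, adjusted p under 0.05 over 19733 rows). As 67.6% of all rows tested passed, with 34% higher and 33.6% lower, a count of 6 among 8 is near the share of all genes. The median log2 fold change of the 8 genes was 0.43, against 0.010 over all rows.

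Between eWAT adipocytes and BAT tissue, Mgll and Ces1f were higher and G0s2, Pnpla2 and Pnpla3 lower in the read counts, where 70.3% of 18383 symbols passed (35.6% higher, 34.7% lower). With row length as an offset Mgll, Ces1f, Lipe and Abhd5 passed higher and G0s2 and Pnpla3 lower, and Pnpla2 no longer passed. Over all symbols 53.3% were then higher and 23.6% lower, and the median of the 8 genes was 0.29 against 0.49 for all. Set against iWAT, the eWAT counts of Ces1f, Pnpla2 and Lipe passed as lower and none of the 8 as higher, where 25.6% of symbols passed (12.3% higher, 13.4% lower). With the length offset, Ces1f passed lower and Mgll passed higher, the sign of Lipe turned, and 47.1% of all symbols were higher and 5.54% lower. The comparisons share samples, so their values are set side by side for each gene below and their agreement was not tested.

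**Figure D2:**
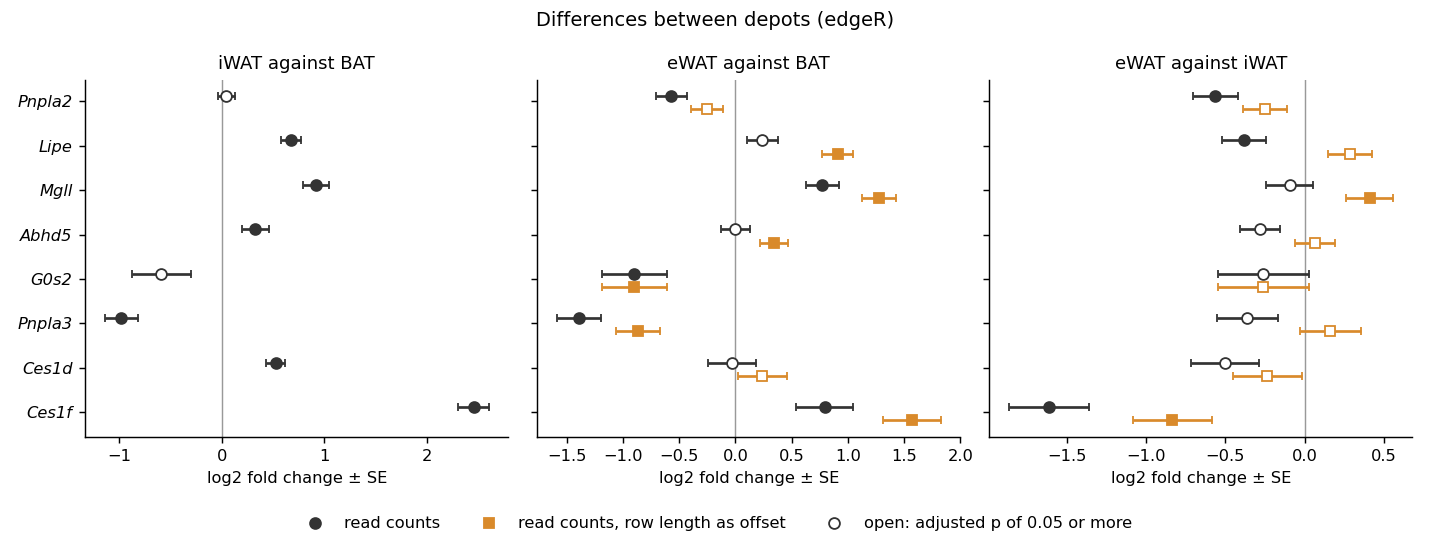
Log2 fold change with its standard error (horizontal axes) of each gene in the 3 comparisons of depots, from read counts (circles) and from read counts with row length as an offset (squares, eWAT comparisons only), with filled symbols for an adjusted p under 0.05. Ces1f stands farthest from 0 between iWAT and BAT, and the squares lie to the right of the circles for every gene except G0s2, whose row is the same in all files.

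Pnpla2, which encodes the lipase of the first step, lies on the plus strand of chromosome 7 of mm9 from 148641087 to 148646642 and has 10 exons in its row. Its RPKM ran from 487 to 555 in iWAT (median 544), from 254 to 589 in eWAT (median 446) and from 383 to 484 in BAT (median 422). The iWAT and BAT samples did not overlap on this scale, and the mean of iWAT was 1.24 times that of BAT. After TMM rescaling the iWAT mean was 495 ± 20.5 (SD, n = 6), that of BAT was 496 ± 36.7 (SD, n = 6), and the ranges overlapped. The difference was 0.046 on the log2 scale (SE 0.081, adjusted p = 0.629 from edgeR), with a 95% interval from -0.11 to 0.20, and 0.31 (adjusted p = 0.00388 from edgeR) without TMM scaling. The call on Pnpla2 between iWAT and BAT thus depended on the scaling.

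For eWAT against BAT, the log2 fold change of Pnpla2 was -0.57 (SE 0.14, adjusted p = 0.00152 from edgeR) in counts and -0.25 (adjusted p = 0.107 from edgeR) with the length offset. The mean RPKM was 452 ± 122 (SD, n = 6) for eWAT adipocytes and 428 ± 37.5 (SD, n = 6) for the brown tissue. Against iWAT the log2 fold change was -0.56 (SE 0.14, adjusted p = 0.00659 from edgeR) in counts and -0.25 (adjusted p = 0.147) with the offset. With the offset both signs stayed negative, but neither value passed. Over all symbols the medians with the offset were 0.49 against BAT and 0.39 against iWAT, and Pnpla2 lay below both. With limma on log2(RPKM + 0.1) the values were 0.033 against BAT, where the median of all symbols was 0.71, and -0.28 against iWAT. Pnpla2 in eWAT was thus low relative to these medians, which was not tested. No direction against 0 is given for it. Counting all eWAT transcripts of the gene together gave 0.95 and 0.93. That sum counts a read once for each transcript in eWAT only, and it includes a minus-strand row. It therefore cannot decide the direction. A further row of Pnpla2, of 1098 bp on the minus strand from 148640218 to 148641315, overlaps the start of the gene and held 4.68% to 6.39% as many reads as the main row in the 18 samples. Whether reads were counted by strand is not given in the sources used here, so the reads of the overlap cannot be assigned to a strand.

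RefSeq windows of 250 bases before to 50 after the start site were found for 6 of the 8 genes (8 windows, GRCm38.p6), and each matched mm9 exactly at 1 place. Ces1d and Ces1f had no entry. The windows of Pnpla2, G0s2, Pnpla3 and Lipe are shown because these genes differed in their direction between depots, in their spread or in their start sites. Capitals mark matches on either strand to any of 6 motifs. The GC box (GGGCGG) was found in 35.7% of all 32851 windows of the reference table and the CCAAT box, searched by those letters, in 37.4% of them. An E box of the letters CACGTG was in 7.15% of the windows, and a TATA box, spelled TATAAA, in 13.6%. The cyclic AMP response element (TGACGTCA) was in 1.79% and the PPAR response element, a direct repeat with a spacer of 1 base whose unit is AGGTCA, in 0.0396%. A match describes letters and does not show a bound factor. The Pnpla2 window, chr7:148640837-148641136 on the plus strand of mm9, holds 2 GC boxes.
Pnpla2: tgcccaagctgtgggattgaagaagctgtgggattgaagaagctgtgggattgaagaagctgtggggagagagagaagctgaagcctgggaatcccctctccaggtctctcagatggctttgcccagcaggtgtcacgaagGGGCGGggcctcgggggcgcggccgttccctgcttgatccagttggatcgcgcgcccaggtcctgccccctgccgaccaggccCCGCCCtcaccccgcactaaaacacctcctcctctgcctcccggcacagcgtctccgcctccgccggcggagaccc

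Lipe, which encodes hormone-sensitive lipase, lies on the minus strand of chromosome 7 from 26164546 to 26183729. Its RPKM ran from 272 to 366 in iWAT (median 312), from 222 to 512 in eWAT (median 404) and from 153 to 186 in BAT (median 161). Every iWAT and eWAT sample lay above every BAT sample in deposited RPKM. On the TMM scale this held for iWAT, whereas the lowest eWAT value (212.533) fell just below the highest BAT value (212.536). Against BAT the log2 fold change of iWAT was 0.67 (SE 0.095, adjusted p = 2.28e-05 from edgeR), which is 1.60-fold, and this call stayed under all 9 other settings tried, with values from 0.62 to 0.94. For eWAT it was 0.24 (SE 0.14, adjusted p = 0.132 from edgeR) in counts and 0.91 (adjusted p = 9.56e-06) with the length offset.

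Against iWAT, the log2 fold change of Lipe in eWAT was -0.38 (SE 0.14, adjusted p = 0.0487 from edgeR) in counts and 0.29 (adjusted p = 0.0932 from edgeR) with the offset, so the direction was not settled. The call from counts stayed in only 2 of 13 other settings. It was also lost without TMM scaling (-0.37, adjusted p = 0.0728 from edgeR) and with a minimum of 50 reads (-0.37, adjusted p = 0.0523 from edgeR). The merged row of 5127 bp reaches further upstream than the transcript used in eWAT, and its full length enters the RPKM of iWAT and BAT. A separate eWAT row that covers a far upstream exon alone (1251 bp, 26182478 to 26183728) held 0 to 8 reads per sample, against 23438 to 47748 reads on the whole transcript. This exon lies in the region of the longer testis form of the enzyme, and it was nearly without reads in eWAT.

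Lipe has a pair of further start sites in RefSeq, which the data of eWAT allow to be set side by side. The transcript from the distal site begins with an exon of 487 bp (26180520 to 26181006) and the one from the proximal site with an exon of 45 bp (26175081 to 26175125), and the rows share their end and their other exons. Per eWAT sample, the row with the distal exon held 109 to 170 reads more than the other, or 0.302% to 0.465% of its reads. This difference is net of the reads on the proximal exon, so it does not give the reads on the distal exon itself. The row with the distal exon was longer, at 3221 against 2779 bp, with few reads more. The RPKM of the proximal row was therefore higher, at 452 ± 110 against 392 ± 94.7 (SD, n = 6 each). The distal window, chr7:26180957-26181256 on the minus strand, holds 6 GC boxes, of which 1 pair overlaps, and 1 E box. The proximal window, chr7:26175082-26175381, holds none of the 6 motifs, and its sequence is shown beside the distal one to compare them.
Lipe distal: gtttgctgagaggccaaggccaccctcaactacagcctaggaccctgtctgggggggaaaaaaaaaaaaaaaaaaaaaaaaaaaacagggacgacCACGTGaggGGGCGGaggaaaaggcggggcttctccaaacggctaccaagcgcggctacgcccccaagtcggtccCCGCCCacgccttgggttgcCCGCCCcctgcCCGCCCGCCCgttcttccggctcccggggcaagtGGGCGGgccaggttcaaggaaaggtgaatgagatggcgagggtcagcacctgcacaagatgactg
Lipe proximal: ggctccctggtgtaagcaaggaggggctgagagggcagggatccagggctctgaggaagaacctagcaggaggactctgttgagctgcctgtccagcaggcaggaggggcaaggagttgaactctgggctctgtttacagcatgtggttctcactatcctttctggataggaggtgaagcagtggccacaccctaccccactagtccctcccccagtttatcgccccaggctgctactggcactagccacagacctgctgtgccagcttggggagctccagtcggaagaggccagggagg

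Mgll, which encodes the lipase of the last step, lies on the plus strand of chromosome 6 from 88674406 to 88778354. Its RPKM ran from 211 to 362 in iWAT (median 267), from 227 to 448 in eWAT (median 369) and from 107 to 128 in BAT (median 123). Every white adipocyte sample lay above every BAT sample, on the deposited and on the TMM scale. Mgll was 1.89-fold higher in iWAT than in BAT tissue (log2 fold change 0.92, SE 0.13, adjusted p = 2.12e-05 from edgeR). For eWAT against BAT the log2 fold change was 0.77 (SE 0.15, adjusted p = 1.50e-04 from edgeR) in counts and 1.28 (adjusted p = 3.33e-07) with the offset, and the call stayed under all 13 other settings. Between eWAT and iWAT it was -0.095 (SE 0.15, adjusted p = 0.681 from edgeR) in counts and 0.41 (adjusted p = 0.0267 from edgeR) with the offset, the latter near the median of all symbols, so the order of these depots was not settled.

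Abhd5, which encodes the coactivator of the first lipase, lies on the plus strand of chromosome 9. Its merged row, from 122260726 to 122320798, reaches beyond the transcript used in eWAT, which ends at 122290641. Its RPKM ran from 29.6 to 36.4 in iWAT (median 32.3), from 26.1 to 40.6 in eWAT (median 35.1) and from 17.9 to 28.5 in BAT (median 20.5). All iWAT samples lay above all BAT samples in deposited RPKM, and the ranges overlapped on the TMM scale. With TMM scaling, the iWAT level of Abhd5 was 1.26 times that of BAT (log2 fold change 0.33, SE 0.13, adjusted p = 0.0338 from edgeR). This call was lost when either sample 14 or sample 15 was left out of iWAT or any of samples 6, 7, 11, 12 and 13 out of BAT, with values from 0.25 to 0.43 over all single omissions. It was also lost with a minimum of 50 reads (0.28, adjusted p = 0.0609 from edgeR) and with all 18 samples fitted together (0.28, adjusted p = 0.0572 from edgeR). For eWAT against BAT the log2 fold change was 0.00041 (SE 0.13, adjusted p = 0.998 from edgeR) in counts and 0.35 (adjusted p = 0.0181) with the offset, and against iWAT -0.28 (SE 0.13, adjusted p = 0.109 from edgeR) and 0.064 (adjusted p = 0.699).

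G0s2, which encodes the inhibitor of the first lipase, lies on the minus strand of chromosome 1 from 195098354 to 195099382. Another annotated gene, LOC100503531, overlaps G0s2 in position, and reads of the pair cannot be told apart. G0s2 was the most variable of the 8 genes in iWAT and BAT, where the SD was 42.9% and 30.0% of the mean, against 36.5% in eWAT, which is more than in 96.0% of iWAT, 94.6% of BAT and 89.4% of eWAT genes whose mean RPKM reached 10. In iWAT, samples 7 and 11 had an RPKM of 88.4 and 67.4, and the other 4 samples ran from 179 to 239. In eWAT the values ran from 87.5 to 213 (median 126) and in BAT from 109 to 297 (median 216). The ranges of the 3 depots overlapped.

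For G0s2 the log2 fold change was -0.59 for iWAT against BAT (SE 0.29, adjusted p = 0.0858 from edgeR), and it passed only when BAT sample 6 was left out (-0.73). It was -0.90 for eWAT against BAT (SE 0.29, adjusted p = 0.0101 from edgeR) and -0.26 for eWAT against iWAT (SE 0.29, adjusted p = 0.545 from edgeR). The call on eWAT against BAT passed with the row that all files share (-0.78) and was lost without TMM scaling (-0.57, adjusted p = 0.0987 from edgeR), with limma on log2(RPKM + 0.1) or log2(RPKM + 1) (-0.59 and -0.58, adjusted p = 0.0961 and 0.101) and with the eWAT transcript of the highest mean RPKM (-0.42, adjusted p = 0.201 from edgeR). The iWAT samples 7 and 11 also had the highest summed RPKM of 5 macrophage markers in iWAT, 46.2 and 23.4 against 6.03 to 9.80. Their sums of 5 fibroblast markers were the lowest there, 471 and 494 against 669 to 747. In eWAT, sample 7 had the lowest G0s2 (87.5) and the lowest macrophage sum (33.8). Sample 13 had the highest G0s2 (213) with a sum of 95.02, and sample 15 had 98.9 with the highest sum (489.7). The part of these cells in the low G0s2 was not tested. The G0s2 window, chr1:195099333-195099632 on the minus strand, holds 1 GC box.
G0s2: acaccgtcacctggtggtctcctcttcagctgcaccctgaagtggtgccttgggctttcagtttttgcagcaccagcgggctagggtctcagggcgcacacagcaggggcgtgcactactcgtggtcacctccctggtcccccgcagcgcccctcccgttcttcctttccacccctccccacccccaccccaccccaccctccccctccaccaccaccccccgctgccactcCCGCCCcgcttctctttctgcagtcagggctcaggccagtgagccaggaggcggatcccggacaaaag

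Pnpla3, which encodes adiponutrin, a relative of the first lipase whose gene follows feeding, lies on the plus strand of chromosome 15 from 83998246 to 84019951. Its RPKM ran from 23.8 to 34.6 in iWAT (median 32.8), from 19.9 to 44.3 in eWAT (median 40.4) and from 35.2 to 60.5 in BAT (median 53.7). Every iWAT sample lay below every BAT sample, and eWAT overlapped both. Its BAT level was 1.97 times that of iWAT (log2 fold change of iWAT against BAT -0.98, SE 0.16, adjusted p = 1.03e-04 from edgeR). For eWAT against BAT the log2 fold change was -1.39 (SE 0.20, adjusted p = 5.06e-06 from edgeR) in counts and -0.87 (adjusted p = 5.56e-04) with the offset. Both calls stayed under all other settings tried. Between eWAT and iWAT it was -0.36 (SE 0.19, adjusted p = 0.186 from edgeR) and 0.16 (adjusted p = 0.517).

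The Pnpla3 window, chr15:83997996-83998295 on the plus strand, holds 3 GC boxes, 1 CCAAT match on the opposite strand and the only cyclic AMP response element found in the 8 windows, whose first base lies 46 bases before the start site.
Pnpla3: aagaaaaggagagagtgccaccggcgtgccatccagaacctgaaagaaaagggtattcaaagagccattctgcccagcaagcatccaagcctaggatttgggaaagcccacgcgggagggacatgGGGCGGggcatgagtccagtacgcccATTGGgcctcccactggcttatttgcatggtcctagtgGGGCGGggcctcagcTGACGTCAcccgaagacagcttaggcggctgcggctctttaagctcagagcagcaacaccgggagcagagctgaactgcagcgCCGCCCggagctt

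Ces1d and Ces1f encode carboxylesterases of the endoplasmic reticulum that can hydrolyse triglyceride. They lie near each other on the minus strand of chromosome 8, Ces1d from 95689967 to 95721737 and Ces1f from 95780135 to 95803646, in a cluster of closely related genes. How reads with several matches were treated is not given in the sources used here, so their levels are uncertain to that extent. The RPKM of Ces1d ran from 285 to 315 in iWAT (median 308), from 82.6 to 338 in eWAT (median 291) and from 149 to 206 in BAT (median 179). All iWAT samples lay above all BAT samples. Ces1d was 1.44-fold higher in iWAT than in BAT tissue (log2 fold change 0.53, SE 0.093, adjusted p = 1.80e-04 from edgeR), and the call was lost when all 18 samples were fitted together (0.48, adjusted p = 0.0606 from edgeR). In eWAT its log2 fold change was -0.028 against BAT (SE 0.22, adjusted p = 0.915 from edgeR) and -0.50 against iWAT (SE 0.22, adjusted p = 0.0945 from edgeR). With the offset these became 0.24 (adjusted p = 0.314 from edgeR) and -0.24 (adjusted p = 0.385 from edgeR).

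Ces1f showed the widest difference of the 8 genes between depots. Its RPKM ran from 35.3 to 45.4 in iWAT (median 36.2), from 5.78 to 26.6 in eWAT (median 24.1) and from 4.497 to 8.28 in BAT (median 5.36), from 363 reads in the lowest sample to 3953 in the highest. The iWAT samples lay above all others, and eWAT lay above BAT except for sample 15. Ces1f was 5.49-fold higher in iWAT than in BAT tissue (log2 fold change 2.46, SE 0.15, adjusted p = 5.11e-09 from edgeR). In eWAT its log2 fold change was 0.80 against BAT (SE 0.25, adjusted p = 0.00913 from edgeR) and -1.61 against iWAT (SE 0.25, adjusted p = 1.82e-04 from edgeR), and 1.57 and -0.83 with the offset (adjusted p = 1.91e-05 and 0.00873 from edgeR). The order iWAT, eWAT, BAT thus passed the test at each step in both fits, although the step from eWAT to BAT was lost when eWAT transcripts were summed (0.35, adjusted p = 0.214 from edgeR). Hepatocyte markers were examined because these esterases are abundant in liver. The summed RPKM of 5 such markers was 9.24 to 12.8 in iWAT, 1.85 to 3.81 in eWAT and 0.0613 to 0.134 in BAT. In iWAT most of it came from Alb, at 10.2 ± 1.26 (SD, n = 6), whereas Ttr and Tat had no read in iWAT or BAT.

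Ratios within a sample remove its total of reads. Lipe reached 0.387 ± 0.0284 of the RPKM of Pnpla2 in BAT, 0.598 ± 0.0509 of it in iWAT and 0.873 ± 0.0689 of it in eWAT (SD, n = 6 each). Mgll reached 0.282 ± 0.0268 of it in BAT, 0.513 ± 0.0872 in iWAT and 0.825 ± 0.0563 in eWAT (SD, n = 6 each). The ranges of the depots did not overlap for either ratio of RPKM values. Both are given with no test, and the eWAT values rest on rows of other lengths. In reads, before division by length, the iWAT and eWAT ratios overlapped. Lipe and Pnpla2 held 45330 and 44546 reads in iWAT sample 13, and 41427 and 46301 in eWAT sample 13. Mgll and Pnpla2 held 59893 and 58267 reads in iWAT sample 14, and 46756 and 46402 in eWAT sample 11. The inhibitor gene G0s2 reached 0.483 ± 0.127 of Pnpla2 in BAT, 0.308 ± 0.124 of it in iWAT and 0.309 ± 0.0686 of it in eWAT (SD, n = 6 each), with overlap between all depots. The coactivator gene Abhd5 reached 0.0506 ± 0.0117, 0.0614 ± 0.00407 and 0.0793 ± 0.0145 (SD, n = 6 each) in the same order. The mean RPKM of the inhibitor gene was thus several times that of the coactivator gene in each depot, with 67.4 and 30.1 in iWAT sample 11. The G0s2 reads cannot be told apart from those of LOC100503531. In iWAT and BAT the Abhd5 row reaches past the transcript used in eWAT, and its full length enters the RPKM. Ces1f to Ces1d separated the depots, with 0.112 to 0.156 in iWAT, 0.0700 to 0.0888 in eWAT and 0.0267 to 0.0402 in BAT.

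**Figure D3:**
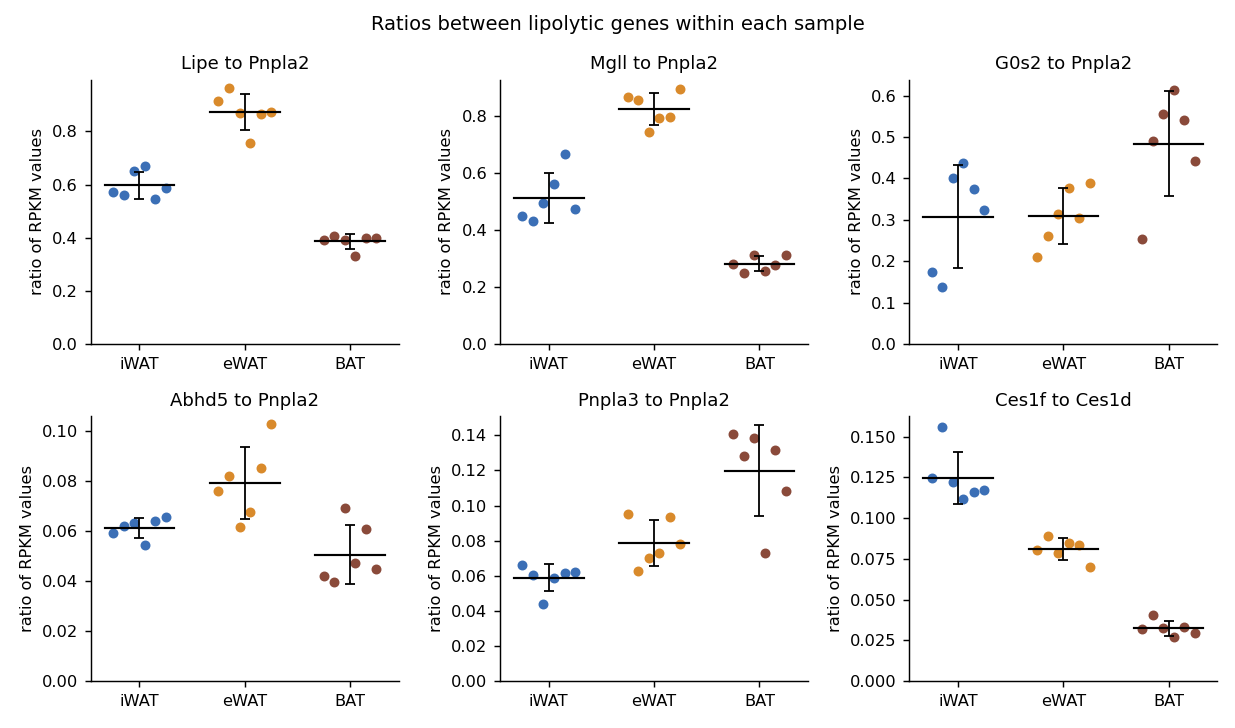
Ratio of the RPKM values of gene pairs (vertical axes, linear, from 0) in each sample, with points for samples, the long line for the mean and bars for ± SD of 6 samples per depot. On this scale the depots do not overlap for Lipe to Pnpla2, Mgll to Pnpla2 and Ces1f to Ces1d, and they overlap for G0s2 to Pnpla2. The eWAT values rest on rows of other lengths, and in reads iWAT and eWAT overlap for Lipe to Pnpla2 and Mgll to Pnpla2.

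Within eWAT, sample 15 had low values. Its RPKM was 27.1% of the median of the other 5 samples for Ces1d, 23.6% for Ces1f, 48.4% for Pnpla3, 53.5% for Pnpla2, 54.0% for Lipe, 60.2% for Mgll, 71.9% for Abhd5 and 68.5% for G0s2. It was the lowest eWAT sample for all of them except G0s2. Beside this, the summed RPKM of 5 adipocyte markers was 4475 in this sample against 7584 to 9439 in the others, and that of 5 macrophage markers 489.7 against 33.8 to 95.02. Its sum over 5 epididymis markers was 71.6, with 87.3 in sample 14 and at most 3.62 in the other 4. The part of these cells in the low values was not tested. Without sample 15, Lipe passed between eWAT and BAT (log2 fold change 0.36, adjusted p = 0.00320 from edgeR), Ces1d passed between eWAT and iWAT (-0.32, adjusted p = 0.0319), and Lipe no longer did (-0.27, adjusted p = 0.0549).

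Without it the mean of Ces1d in eWAT was 296 ± 33.9 (SD, n = 5) and that of Ces1f 24.6 ± 1.81 (SD, n = 5). In iWAT Ces1d and Pnpla2 were among the steadiest genes, with an SD of 4.004% and 5.08% of the mean, and only 1.11% and 2.82% of iWAT genes whose mean RPKM reached 10 were steadier. The BAT sample 12 had a summed RPKM of 1340 for 5 skeletal muscle markers, against 0.550 to 119 among the others, and leaving it out ended the call on Abhd5 between iWAT and BAT (0.33, adjusted p = 0.0510 from edgeR) and no other call on these genes.

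**Figure D4:**
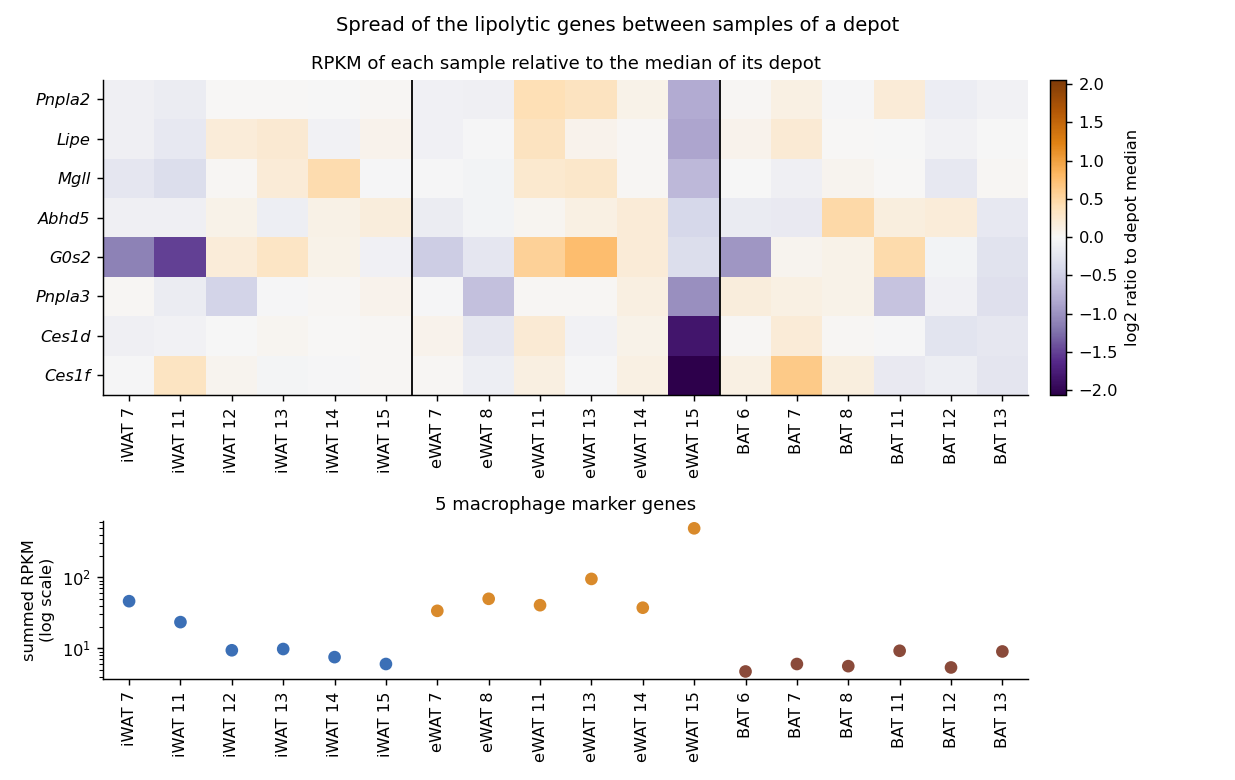
Upper panel, log2 ratio of each sample's RPKM to the median of its depot (colour scale) for the 8 genes (rows) in 18 samples (columns). Lower panel, summed RPKM of 5 macrophage markers in the same samples (vertical axis, log scale), which is highest in eWAT sample 15, the sample with the lowest Ces1d and Ces1f relative to its depot.

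The genes most like each member within depots were sought by the Pearson correlation of log2(RPKM + 0.1) after subtracting depot means, over 18 samples and 13876 symbols, given with no p. The samples share preparation and eWAT sample 15. The first places went to LOC100503531 for G0s2 (r = 0.99998), LOC100503615 for Lipe (r = 0.981) and A730085K08Rik for Abhd5 (r = 0.933). All of these overlap the gene in position, as do 4732471J01Rik for Lipe (r = 0.980) and AK029023 for Mgll (r = 0.940). Among those at other positions, Pnpla2 was most like C330006A16Rik (r = 0.971) and Rab34 (r = 0.951), Mgll was like Arl2bp (r = 0.945), Abhd5 like Zdhhc5 (r = 0.857) and G0s2 like Dnajb12 (r = 0.944). Pnpla3 was most like Mdh1 (r = 0.927) and Slc25a35 (r = 0.914), Ces1d like Ces1f (r = 0.957) and Proca1 (r = 0.952), and Ces1f like Adhfe1 (r = 0.968) and Ivd (r = 0.961). Without eWAT sample 15 (17 samples) the values were lowest for Ces1d and Ces1f, at 0.675, for Ces1f and Ivd, at 0.766, for Ces1d and Proca1, at 0.777, and for Zdhhc5 (0.811), Adhfe1 (0.827), Slc25a35 (0.854) and Mdh1 (0.875). The pairs that overlap in position had 0.879 to 0.99998 without it, and Rab34 (0.894), Arl2bp (0.897), C330006A16Rik (0.938) and Dnajb12 (0.945) lay in the same range.

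Other genes of the route were read from the same fits. Of 12 genes of the droplet coat and the partners of the lipases, 7 were higher and 5 lower in iWAT than in BAT (median log2 fold change 0.43), where 34% and 33.6% of all rows were higher and lower. Hilpda, a further inhibitor of the first lipase, was higher in iWAT, with 39.2 ± 16.1 RPKM against 2.05 ± 0.350 (SD, n = 6 each, log2 fold change 3.999, adjusted p = 1.23e-08 from edgeR), as was Serpinf1, which encodes a secreted ligand of that lipase (2.85, adjusted p = 1.58e-09). Cidea, a gene of droplet growth (-5.40, adjusted p = 1.02e-11), and Plin5, a droplet coat protein that binds the lipase and Abhd5 (-3.85, adjusted p = 4.60e-11), were lower.

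For eWAT against BAT, 6 of the 12 passed as higher and 5 as lower in counts (median 0.25), beside 35.6% and 34.7% of all symbols. Hilpda was at 4.28 in counts and 4.45 with the length offset, Serpinf1 at 2.28 and 2.65, Cidea at -8.73 with both and Plin5 at -5.08 and -5.02. Between eWAT and iWAT none passed as higher and 4 as lower (median -0.26), beside 12.3% and 13.4% of all symbols. Cidea was at -3.28 with both, and Plin1, a droplet coat gene, at -0.55 in counts (adjusted p = 0.0107 from edgeR) and -0.15 with the offset (adjusted p = 0.403 from edgeR).

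Of 21 related hydrolases, 10 were too low to test, with an RPKM of at most 0.193 in any sample. These included Ces1a, Ces1c, Ces1e and Ces1g, relatives of Ces1d and Ces1f, whereas Ces1b reached up to 6.95 RPKM. Of the 11 tested, 2 were higher and 6 lower in iWAT than in BAT (median -0.61, beside 34% and 33.6% of all rows), with Abhd12 at 0.90, Ddhd2 at -1.89 and Lipa, the lysosomal acid lipase gene, at -1.13. The eWAT counts had 2 higher and 4 lower than BAT (median -0.013, beside 35.6% and 34.7% of all symbols). Ddhd2 was at -2.24 in counts and -1.56 with the offset, and Abhd6 at -1.56 and -1.31.

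The higher hydrolases of eWAT moved with sample 15, which had the highest macrophage markers. Nceh1 had an RPKM of 44.8 in that sample and 1.89 to 6.91 in the others, Lipa 288 against 20.6 to 55.9, and Abhd12 94.7 against 29.0 to 48.4. Against BAT, Nceh1 was at 3.84 in counts, 4.08 with the offset and 2.20 without sample 15, where its mean RPKM was 3.44 ± 2.00 (SD, n = 5). Abhd12 was at 1.48, 2.00 and 1.12 in the same order. Against iWAT, Nceh1 was at 3.69, 3.93 and 2.05 and Lipa at 2.06, 3.20 and 0.83, in a list with 4 higher and 2 lower (median 0.072, beside 12.3% and 13.4% of all symbols), or 3 higher and 1 lower without sample 15. The part of macrophages in these values was not tested.

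Of 16 genes of the hormonal control of lipolysis, 4 were higher and 6 lower in iWAT than in BAT (median -0.10), and these 10 of 16 are near the 67.6% of all rows that passed. Hcar2, the receptor gene through which nicotinic acid and ketone bodies restrain lipolysis, was higher (log2 fold change 4.13, adjusted p = 1.21e-07 from edgeR), as was Pde3b, the insulin-regulated phosphodiesterase gene (0.85, adjusted p = 3.15e-05). Adcy3 (-1.66) and Gnas (-1.40), which encode an adenylyl cyclase and the stimulatory G protein, were lower. The eWAT counts had 2 higher and 9 lower than BAT (median -0.60), beside 35.6% and 34.7% of all symbols, or 4 higher and 10 lower without sample 15. Hcar2 was at 2.17 in counts and with the offset and Adcy3 at -2.52 and -2.32, whereas Gnas turned from -1.86 in counts to 0.52 with the offset. Between eWAT and iWAT none passed as higher and 7 as lower (median -0.38), beside 12.3% and 13.4% of all symbols. Hcar2 was at -1.91 with both (adjusted p = 2.68e-04 from edgeR in counts), and Adora1, an adenosine receptor gene, at -0.87 and -0.80, turned to 0.050 by counting all transcripts together.

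Of 10 genes that handle the products of lipolysis, 4 were higher and 3 lower in iWAT than in BAT (median 0.084), which is near the 67.6% of all rows that passed. The fatty acid carrier genes Cd36 (1.08) and Slc27a1 (0.85) were higher, and Cpt1b (-6.22), of mitochondrial fatty acid entry, and Gk (-3.52), the glycerol kinase gene, were lower. In eWAT counts, 3 passed as higher and 6 as lower than in BAT (median -0.78, beside 35.6% and 34.7% of all symbols). Cd36 was at 1.27 in counts and 2.48 with the offset, Fabp5 at 1.09 with both, Cpt1b at -8.14 with both and Gk at -3.47 and -2.66. Set against iWAT, none passed as higher and 5 as lower (median -0.49, beside 12.3% and 13.4%). Dgat1 was at -0.90 in counts and -0.21 with the offset (adjusted p = 0.270 from edgeR), and Acsl1 turned from -0.89 to 0.58, so its direction was not settled.

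Of 9 genes of transcription factors known to act on lipase genes, 4 were higher and 2 lower in iWAT than in BAT (median 0.46), again near the 67.6% of all rows that passed. Cebpa (0.59) and Nr1h3 (0.46) were higher, and Ppara (-4.07) and Mlxipl (-2.43) were lower. In eWAT counts, 2 passed as higher and 2 as lower than in BAT (median -0.010, beside 35.6% and 34.7%), with Nr1h3 at 0.36 and 0.53 with the offset, Ppara at -5.16 and -5.08 and Mlxipl at -3.21 and -2.65. Set against iWAT, none passed as higher and 3 as lower (median -0.29, beside 12.3% and 13.4%). Srebf1 was at -0.67 in counts and -0.25 with the offset and did not pass in 15 of 25 other settings, among them the one without eWAT sample 15 (-0.56, adjusted p = 0.0934 from edgeR), and it turned to 0.82 when all transcripts were counted together. Cebpa was at -0.55 with both.

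Over all symbols the median was 0.035 for eWAT against BAT and -0.0028 for eWAT against iWAT. With the length offset, 47.1% of all symbols passed as higher and 5.54% as lower between eWAT and iWAT (median 0.39). Beside this, the genes higher and lower became 2 and 2 of 12 for the droplet list, 8 and 0 of 11 for the hydrolases, 4 and 5 of 16 for hormonal control, 3 and 1 of 10 for the products and 0 and 2 of 9 for the transcription factors, so these counts depended on how row length was treated. Between eWAT and BAT the offset gave 53.3% higher and 23.6% lower of all symbols (median 0.49), and the lists had 7 and 4, 4 and 4, 7 and 7, 5 and 3, and 3 and 2 in the same order.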

How the data were processed

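RNA-seq was analysed in 6 iWAT adipocyte, 6 eWAT adipocyte and 6 BAT tissue samples, grouped by the depot in their labels. Total RNA had been made into libraries with the NEBNext Ultra kit. The submitters' processing notes name cutadapt (1.16), HISAT2 (2.1.0) and mm9, and the methods of the study name the Genomatix Genome Analyzer. The annotation, the counting by strand and the handling of reads with several matches are not given in the sources used here. The authors deposited a raw read count for every row, and an RPKM that equals this count per length and per total of reads. Rows are 53445 merged genes in iWAT and BAT and 189660 transcripts in eWAT, so depot and way of counting cannot be told apart for eWAT.

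The 8 genes, the pathway lists and the marker lists were chosen with earlier results of these data known. Counts were tested by the quasi-likelihood method of edgeR 4.0.16 (R 4.3.3) with TMM scaling and library sizes taken from the totals behind the RPKM, keeping rows in which 6 or more samples had 10 or more reads. The iWAT and BAT comparison used 12 samples and all merged rows, and the eWAT comparisons used 18 samples and the most-read transcript per symbol. The threshold was a Benjamini-Hochberg adjusted p of 0.05 over all rows, and standard errors came from the F statistic. The code was tested on simulated data. From each list, up to 2 genes per direction with the largest change were named, if the depot with the higher level had a mean RPKM of 10 or more. Alternatives were DESeq2 1.42.0, limma 3.58.1 on log2(RPKM + 0.1) and log2(RPKM + 1), other scaling, filters, eWAT rows and sample sets, the length offset, a block on the title number, and single omissions. Leaving out eWAT samples 14 and 15 together was chosen after seeing the data.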

Additional observations from a re-analysis of the deposited data

Results flagged for a closer look

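In each depot, the highest and the lowest of the 6 RPKM values of each gene were compared with the nearest other value, and a sample was taken as far from the others when the gap was too wide by Dixon's 95% criterion for 6 values. Of 24 such groups 3 had such a sample, where about 1 in 20, or 1.2 groups, would be met by chance. In eWAT sample 15, Ces1d had an RPKM of 82.6 against 249 to 338 in the other 5 samples, and Ces1f had 5.78 against 22.1 to 26.6. In iWAT sample 11, Ces1f had 45.4 against 35.3 to 37.4. The minus-strand row that overlaps the start of Pnpla2 held reads in every sample, with 1282 in the lowest (2430 to 3527 in iWAT, 1282 to 2877 in eWAT and 2049 to 2750 in BAT). It was not the row taken for Pnpla2, but it was among all rows tested between iWAT and BAT and among the summed eWAT transcripts.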

How the results depend on the processing

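Of 571 log2 fold changes of the 8 genes under other settings, 496 kept their side of the threshold with no called value turning sign, and 15 turned sign with a call on either side. All 15 concerned eWAT. Against BAT, Pnpla2 turned from -0.57 to 0.033 with limma on log2(RPKM + 0.1) or log2(RPKM + 1) and to 0.95 when all eWAT transcripts were summed, and with the eWAT transcript of the highest mean RPKM Lipe turned to -1.63 and Abhd5 to -0.59. Against iWAT, Lipe turned from -0.38 to 0.27 with either limma fit, 0.31 with summed transcripts and 0.29 with the length offset, Mgll from -0.095 to 0.42 with either limma fit, 0.84 and 0.41, Pnpla2 to 0.93 and Abhd5 to 0.39 with summed transcripts. Summing counts a read once for each transcript, and a shorter row collects fewer reads.

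The 6, 5 and 3 genes called between iWAT and BAT, eWAT and BAT, and eWAT and iWAT became 0, 1 and 0 on rows that all files share, where only G0s2 could be tested, and the last became 7 with summed transcripts. With a single sample left out they ran from 5 to 6, 5 to 6 and 2 to 3. The genes called over the whole table, 13337, 12917 and 4714, became 3590, 3888 and 737 on shared rows, where 5733 were tested, and ran from 12307 to 13291, 12087 to 12783 and 3881 to 5157 with a sample left out. Between eWAT and iWAT they were 9661 (8676 higher, 985 lower) and 9507 with limma at pseudocounts of 0.1 and 1, 10523 with the transcript of the highest mean RPKM, 13584 with summed transcripts and 9682 (8664 higher, 1018 lower) with the length offset, against 2252 higher and 2462 lower in the counts. Without TMM, 9107 rows were higher and 4732 lower between iWAT and BAT, and 8946 and 4542 between eWAT and BAT.

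The number in the sample titles, which the labels do not explain, was entered as a replicate block. It gave 6, 5 and 2 of the 8 genes and 11711, 11401 and 3153 of all rows. Deviations from depot means of samples with the same number had correlations of -0.0401 to 0.129 (4 pairs, iWAT and BAT), -0.154 to 0.0552 (4 pairs, eWAT and BAT) and -0.321 to 0.148 (5 pairs), so the samples were not treated as paired. G0s2 had 1455 to 7652 reads per sample, and its standard error of 0.29 was the largest of the 8 genes in each comparison.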
